A study of Rattus norvegicus with 6 samples.

Results

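Among the 763 rat miRNA names in the deposited count table, 185 (24.2%) had a count of 0 in all 6 lens libraries, and these are the miRNAs described here. They were selected on their counts alone: every name with the rat prefix whose sum over the 6 libraries was 0. The other 578 rat names had at least 1 count, so the absence of counts in the 185 is the rule and not a finding. What the rule did not use is which hairpin, arm, family, locus and tissue list each name belongs to, and how the opposite arm of the same hairpin was counted.

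Small RNA was sequenced from lens capsules (the capsular membrane of the lens) of Sprague Dawley (SD) rat pups, which were 8 days old at the start. The control group (3 lenses from 3 rats) was injected subcutaneously with saline, and the Na2SeO3 group (3 lenses from 3 rats) with sodium selenite at 20 µmol/kg under the skin of the nape on days 3, 5 and 7, a treatment that clouds the lens. The lenses were taken on day 15, and no genetic change was made in any animal. The dissected capsule carries the lens epithelium, and a bulk library cannot tell fewer cells of a type from less RNA per cell.

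A miRNA gene is transcribed as a hairpin, which the nuclease Drosha trims in the nucleus and Dicer opens in the cytoplasm into a short duplex. The duplex has an arm from the 5′ side of the hairpin (5p) and an arm from its 3′ side (3p). Usually the guide arm is loaded into Argonaute and kept, while the passenger arm is degraded. The guide recognises target mRNAs mainly through its seed, bases 2 to 8. miR-184 and miR-204 are known for high expression in the lens, and the miR-183/96/182 cluster in sensory cells such as photoreceptors.

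The first set of sequences shows the arm at 0 beside the counted arm of the same hairpin, for hairpins of miRNAs known for a tissue, from muscle (miR-1), gut and kidney (miR-192), pancreatic islets (miR-375), red cells (miR-451) and liver (miR-122, of whose 350 counts 262 came from Na2SeO3 library 3). RNA is written 5′ to 3′ as in RefSeq (GRCr8), with the seed in capitals.
miR-1-5p (at 0): gCACAUACuucuuuauguaccc
miR-1-3p (57504 counts): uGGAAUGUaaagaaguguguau
miR-192-3p (at 0): cUGCCAGUuccauaggucacag
miR-192-5p (6295 counts): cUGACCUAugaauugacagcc
miR-375-5p (at 0): gCGACGAGccccucgcacaaacc
miR-375-3p (2025 counts): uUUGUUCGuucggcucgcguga
miR-451-3p (at 0): aUGGUAAUgguucucuugcugcu
miR-451-5p (1187 counts): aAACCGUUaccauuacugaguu
miR-122-3p (at 0): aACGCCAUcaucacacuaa
miR-122-5p (350 counts): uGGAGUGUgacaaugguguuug

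The second set shows names at 0 that are the reverse complement of a miRNA counted in these libraries, with the complementary run in capitals in both. Read from opposite ends, the capitals of each name at 0 pair base for base with those of the counted arm.
miR-3553 (at 0): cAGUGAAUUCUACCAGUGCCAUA
miR-183-5p (348556 counts): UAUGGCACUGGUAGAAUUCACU
miR-3596a (at 0): AACUAUACAACCUACUACCUCA
let-7a-5p (43176 counts): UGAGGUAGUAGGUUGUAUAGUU
miR-203b-5p (at 0): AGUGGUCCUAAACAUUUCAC
miR-203a-3p (28360 counts): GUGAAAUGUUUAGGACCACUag
miR-3574 (at 0): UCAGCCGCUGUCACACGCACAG
miR-210-3p (1541 counts): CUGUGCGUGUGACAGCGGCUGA

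Counts of the libraries summed to between 1806596 and 2829903 in the control group and between 663096 and 968151 in the Na2SeO3 group, 9221212 in all. A count of 0 in all 6 libraries allows a level of up to 3 counts of that total, 0.325 CPM (counts of a miRNA relative to the library total, scaled to 1e+06), or 0.447 CPM over the control libraries and 1.20 CPM over the shallower Na2SeO3 libraries. These limits cover counting error only, because no molecular identifier tells reads of 1 molecule from those of another. The label of the tissue was read from 6 miRNAs, and all 6 were abundant in every library. miR-184, miR-204-5p and miR-211-5p are on the list of lens and retina. miR-183-5p, miR-96-5p and miR-182 are those of sensory cells such as photoreceptors, so the 6 do not tell lens from retina. Other cell types' miRNAs were also high: the summed level of the neuron list was 36448 to 36909 CPM in the control libraries and 46852 to 53344 CPM in the Na2SeO3 libraries, with 272788 counts of miR-9a-5p and 29996 of miR-124-3p, and the cells these came from were not tested. miR-184 stood at 75569, 79842 and 72523 CPM in the control libraries and at 42335, 41008 and 36090 CPM in the Na2SeO3 libraries. miR-182 stood at 71398 to 91252 CPM in the control group and at 104608 to 114496 CPM in the Na2SeO3 group.

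Rat names at 0 were fewest in the library with the most counts, control library 1, and most numerous in that with the fewest, Na2SeO3 library 1. The control libraries lacked 242, 275 and 265 rat names, and the Na2SeO3 libraries 317, 283 and 295, in the order of their numbers. The order by depth was not strict, since control library 2 had more counts than control library 3 and also more names at 0. All 3 control libraries lacked 203 names and all 3 Na2SeO3 libraries lacked 244, while the control group held 72.8% of all counts. The control group lacked 18 names that were counted in the Na2SeO3 group, at 9 counts or fewer, and the Na2SeO3 group lacked 59 names counted in the control group, at 7 counts or fewer. With counts this low next to the difference in depth, the part of depth and of treatment in these numbers was not tested. Just outside the rule, 35 names had a single count in all, 24 of them in a control library, 23 names had 2 counts and 24 names had 3.

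Several of the names just outside the rule lie opposite an abundant arm. miR-26a-3p had 1 count in control library 1 against 334617 counts of miR-26a-5p, and miR-21-3p had 1 count in Na2SeO3 library 2 against 107966 of miR-21-5p. miR-218a-1-3p, miR-206-5p and miR-101b-5p also had 1 count each, with 56854, 15629 and 8910 counts of the opposite arm. The boundary between these names and the 185 is therefore a single read.

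By arm, 62 of the 309 names ending in 5p (20.1%) and 50 of the 318 ending in 3p (15.7%) were at 0. Of the 136 names with no arm in the name, 73 (53.7%) were at 0. A name without an arm means that only 1 product of the hairpin had been recorded when it was named.

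For the 112 members with an arm, the opposite arm of the same hairpin was counted in 72 cases (64.3%) and also at 0 in 40. It had at least 10 counts in 45 cases, at least 100 in 28 and at least 1000 in 14. Among the 28 with at least 100 counts, the arm at 0 was the 5p arm in 17 and the 3p arm in 11. The 72 members had 69 distinct counted arms opposite them, since copies of a hairpin can share an arm, and 38 of the 69 were counted in every library. When arms were paired by the RefSeq hairpin and not by name, 97 members had an arm on the other side, and it was counted for 60 of them.

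Across all 325 rat arm pairs of the table, an arm at 0 became rarer as the other arm became more abundant. It was 27 of 35 pairs (77.1%) where the higher arm had 1 to 9 counts, 17 of 53 (32.1%) from 10 to under 100 counts and 14 of 79 (17.7%) from 100 to under 1000 counts. It was 11 of 71 (15.5%) from 1000 to under 10000 counts and 3 of 66 (4.55%) at 10000 counts or more. In 21 pairs both arms were at 0. The pairs share the libraries and their depth, so these shares are a description.

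**Figure D1:**
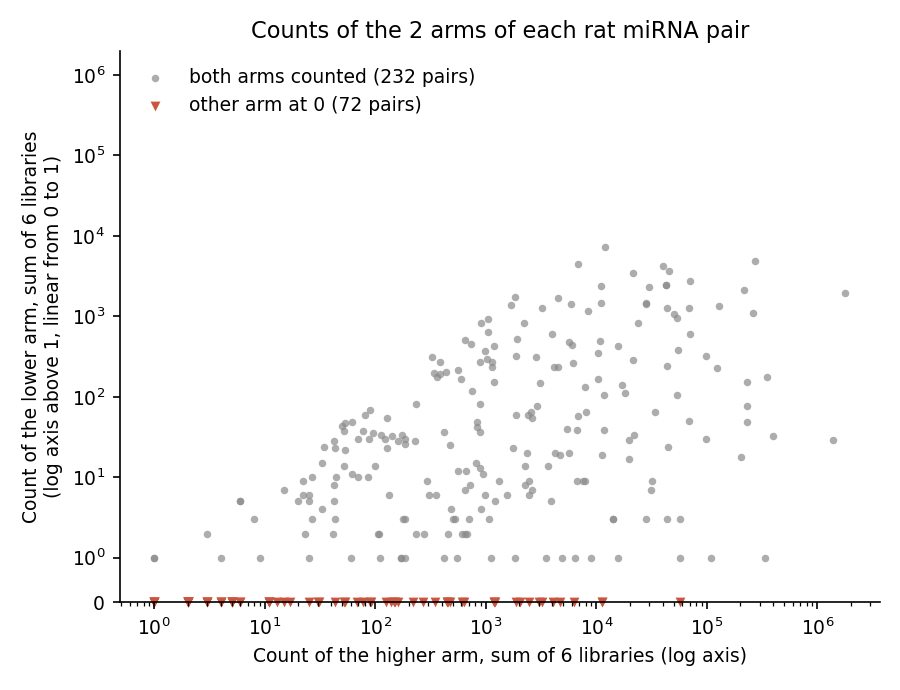
Count of the higher arm (x axis, log) against the lower arm (y axis, log above 1 and linear below) of each rat miRNA pair with a counted arm, both as sums of 6 libraries. Red triangles on the base line are the 72 pairs whose other arm was at 0, and grey points are pairs with both arms counted; the triangles thin out to the right, where 3 of 66 pairs lie at 10000 counts or more.

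The most abundant hairpin with an arm at 0 was miR-1, a miRNA made together with miR-133 in heart and skeletal muscle. The counted arm, miR-1-3p, had 13522, 11790 and 8553 counts in the control libraries and 5977, 9227 and 8435 in the Na2SeO3 libraries. miR-1-5p had none in any of them, so miR-1-3p was at least 19168-fold higher over the 6 libraries, taking 3 counts as the floor for the arm at 0. The arm at 0 made up at most 0.00522% of the count of its partner.

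Next came miR-103, of the miR-103/107 family known for its role in insulin sensitivity, with 926 to 2938 counts of miR-103-3p in each library. Both hairpin copies give the same 3p arm, and the 5p arm of each copy was at 0. For some other hairpins with copies, the counts of the 5p arms differed, while for miR-664 the 5p arms of both copies were also at 0. miR-92a-2-5p was at 0 and miR-92a-1-5p had 19 counts, with 4660 counts of miR-92a-3p, which both copies give. miR-19b-2-5p was at 0 and miR-19b-1-5p had 2 counts, with 450 counts of miR-19b-3p. These hairpins lie in the miR-17/92 cluster and its X-linked relative, whose miRNAs act in proliferation.

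Among hairpins of tissue-restricted miRNAs, miR-192-3p was at 0 while miR-192-5p, a miRNA of gut and kidney epithelium, had 1955, 1277 and 1255 counts in the control libraries and 457, 615 and 736 in the Na2SeO3 libraries. miR-375-5p was at 0 while miR-375-3p, which regulates insulin secretion in islets, had 356 to 691 counts in the control libraries and 121 to 168 in the Na2SeO3 libraries. For the muscle miRNA miR-133b the 3p arm had 140 to 325 and 81 to 262 counts in the same order, with the 5p arm at 0.

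miR-451 is a special case among miRNAs, because Argonaute 2 and not Dicer cuts its hairpin, and the 3p side does not leave it as a separate short RNA. miR-451-5p had 366, 271 and 181 counts in the control libraries and 78, 179 and 112 in the Na2SeO3 libraries, and miR-451-3p had 0 in all 6. The other 4 names on the list of erythroid miRNAs were counted, with miR-486 the highest at 1633 counts.

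The 20 members with the highest opposite arm were ranked by the mean CPM of that arm over the 6 libraries. Of their other hairpins, miR-186, miR-328a, miR-149 and miR-598 had 4027, 3187, 3014 and 2431 counts of the counted arm over the 6 libraries. miR-190b had 1866, miR-185 had 1192, miR-214 had 636, miR-383 had 605 and miR-758, of the imprinted Dlk1-Dio3 locus, had 444. The arm at 0 was the 5p arm for miR-328a, miR-598, miR-214 and miR-758 and the 3p arm for the other 5.

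**Figure D2:**
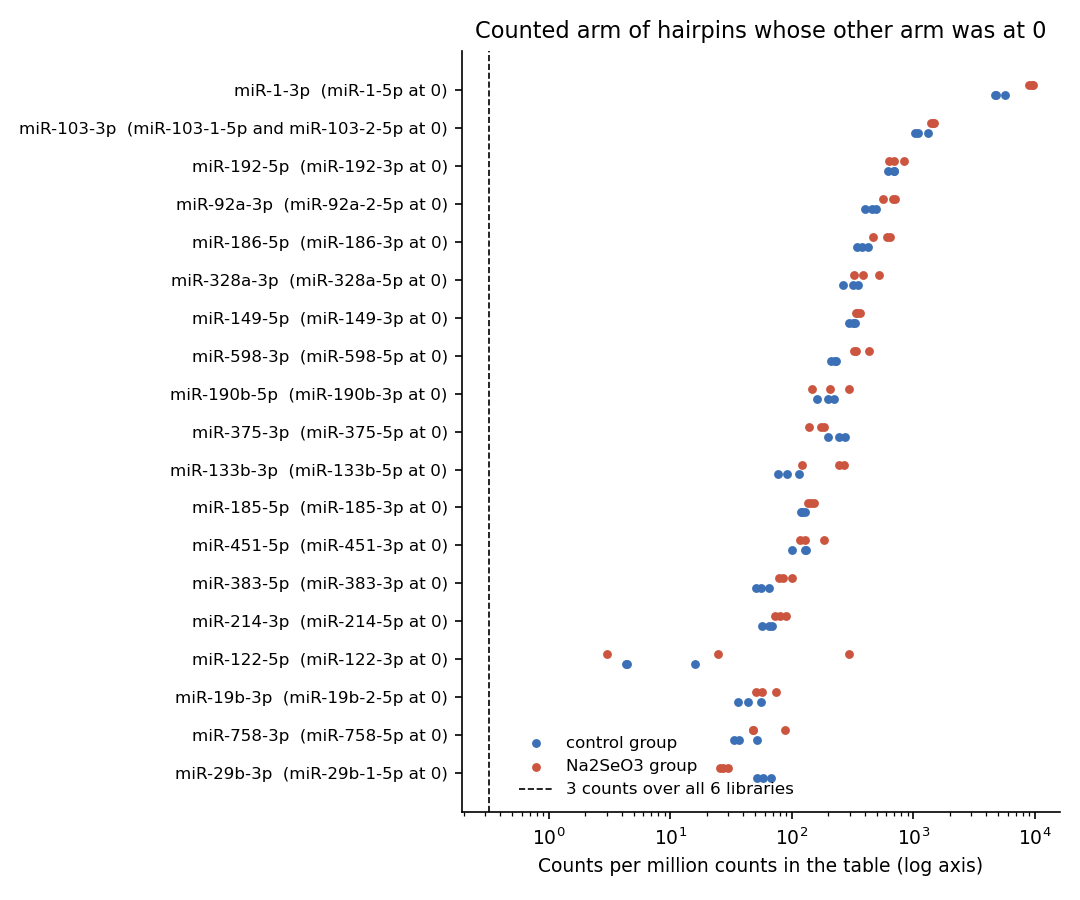
CPM on a log axis of the counted arm of the 19 arms opposite the 20 members with the highest opposite arm by mean CPM, with 1 point per library (blue, 3 control; red, 3 Na2SeO3) and the arm at 0 in brackets. All arms lie to the right of the dashed line at 0.325 CPM, the level of 3 counts over the 6 libraries together. In Na2SeO3 library 1 alone, 3 counts are 4.52 CPM, and miR-122-5p had 2 counts there. The widest spread is that of miR-122-5p, with Na2SeO3 library 3 apart.

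Whether the counted arms opposite the members differed between the groups was read from edgeR's quasi-likelihood test on the whole table. The thresholds were an adjusted p-value below 0.05 and an absolute log2 fold change above 1. Both were met by 56 of 341 miRNAs (16.4%), 39 of them (11.4%) higher and 17 (4.99%) lower in the Na2SeO3 group. Of the 69 counted opposite arms, 31 had enough counts to be tested and 5 passed (16.1%), 4 higher and 1 lower. This is close to the share over all miRNAs. The median log2 fold change was 0.20 over the 31 and 0.08 over all 341.

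miR-29b-3p, which lowers collagen and other matrix mRNAs and lies opposite miR-29b-1-5p, was the arm that fell. It had 192, 107 and 105 counts in the control libraries and 18, 25 and 26 in the Na2SeO3 libraries, with no overlap between the groups in CPM. The log2 fold change was -1.29 ± 0.22 (SE, n = 3 per group; adjusted p = 0.000704, edgeR), and the call held without each library in turn. miR-29b-5p, the same arm as miR-29b-1-5p by name, had 11, 10 and 2 counts in the control libraries and 0, 0 and 2 in the Na2SeO3 libraries.

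miR-501-3p, opposite miR-501-5p, had 6, 10 and 3 counts in the control libraries and 10, 10 and 13 in the Na2SeO3 libraries, a log2 fold change of 2.01 ± 0.52 (SE, adjusted p = 0.00912, edgeR). The groups did not overlap in CPM, but the call was lost without control library 1, control library 3 or Na2SeO3 library 3 (adjusted p up to 0.0713). miR-299b-3p, opposite miR-299b-5p, had 35, 17 and 14 counts against 14, 23 and 21, a log2 fold change of 1.08 ± 0.30 (SE, adjusted p = 0.0137, edgeR), also without overlap in CPM. That call was lost without control library 2, control library 3 or Na2SeO3 library 3 (adjusted p up to 0.0731). The mature sequence of miR-299b-3p lies whole within that of miR-299a-3p, which had 40, 18 and 18 counts in the control libraries and 14, 29 and 23 in the Na2SeO3 libraries. A read of only the shared bases could belong to either name, and how the counting divided such reads is not known.

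miR-1193-3p, opposite miR-1193-5p, had 22, 12 and 9 counts against 5, 26 and 16, and the groups overlapped. Its log2 fold change was 1.33 ± 0.41 (SE, adjusted p = 0.0231, edgeR), with 5 of the 6 fits that left out a library, all but that without Na2SeO3 library 1, not calling it (adjusted p up to 0.195).

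The liver miRNA miR-122-5p, opposite miR-122-3p, passed with a log2 fold change of 3.52 ± 0.98 (SE, adjusted p = 0.0135, edgeR), but a single library carried it. It had 45, 9 and 8 counts in the control libraries and 2, 24 and 262 in the Na2SeO3 libraries, so the groups overlapped. Without Na2SeO3 library 3 the log2 fold change was 0.55, and the call was also lost without any of the control libraries (adjusted p up to 0.674). Of the 19 arms opposite the 20 members in the plot of counted arms, 6 had an adjusted p below 0.05 in edgeR, which 118 of all 341 (34.6%) had, and 2, miR-29b-3p and miR-122-5p, passed both thresholds; the others lay between -0.72 and 0.98 on the log2 scale.

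The 40 members whose opposite arm was also at 0 came from 19 hairpin names once copies were joined. They included miR-202, made in ovary and testis, miR-449c of multiciliated cells, and miR-465, miR-509, miR-742, miR-880 and miR-883 of the X-linked testis cluster. miR-196c, a relative of the miR-196 genes that lie among the Hox genes, was also at 0 on both arms. The rest were miR-664, miR-1199, miR-1956, miR-3084a, miR-3084b, miR-3551, miR-3561, miR-3573, miR-3580, miR-3583 and miR-3584. Of these, miR-3551 and miR-3580 lie by position among the X-linked genes from Mir471 to Mir465, though the list of that cluster leaves them out.

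By family, the rat names held 362 miRNA numbers, and in 76 of them every rat name was at 0. Names under the prefix of another species were left out of these numbers. Most of the 76, 59, had a single rat name in the table and 15 had a pair of rat names. Only miR-664 with 3 names and miR-3084 with 5 names had 3 or more names that were all at 0. The 76 numbers took in 97 members, and the other 88 members belonged to 71 numbers in which another rat name was counted. The number 7, which takes in let-7 and miR-7, had none of its 23 names at 0, and miR-30 none of its 11.

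The number itself, which follows the order of discovery, went with the share at 0. Of 626 names numbered below 1000, 110 (17.6%) were at 0, and their median sum was 59.5 counts. Of 27 names numbered from 1000 to under 3000, 9 (33.3%) were at 0, and of 110 names numbered 3000 or above, 66 (60%) were at 0. No name of the last class had more than 565 counts over the 6 libraries (miR-3559-5p), and its median sum was 0, against 28 for all rat names.

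**Figure D3:**
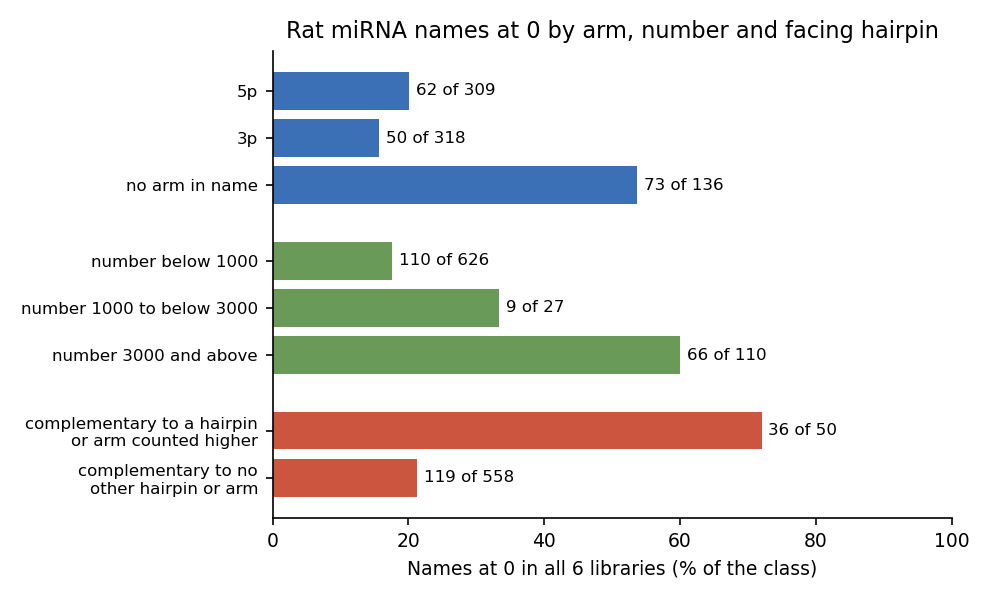
Share of rat miRNA names at 0 in all 6 libraries, in percent of each class, by arm in the name (blue), by miRNA number (green) and by whether the mature sequence is complementary to a hairpin or arm counted higher or to no other hairpin or arm (red). The longest bars are names complementary to a hairpin or arm counted higher (36 of 50), names numbered 3000 or above (66 of 110) and names without an arm (73 of 136).

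Tissue and locus lists were made from miRNAs known for a cell type or cluster. They held 64 of the 185 members, and 121 members were in none. The cluster of X-linked miRNAs that rodent testis expresses had the most members of any list, with 19 of 29 names at 0, and a median sum of 0 for the list. No name of it had more than 17 counts, that of miR-741-3p with 8, 4 and 4 counts in the control libraries and 0, 1 and 0 in the Na2SeO3 libraries, opposite miR-741-5p at 0. The members with the next highest opposite arm were miR-547-5p (miR-547-3p at 11 counts) and miR-881-5p (miR-881-3p at 6 counts). Along the X chromosome, 13 of 18 names of the 10 neighbouring genes from Mir471 to Mir465 were at 0, and 5 of 6 names of the 3 genes from Mir743b to Mir883.

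The miR-290 to miR-295 cluster, which rodent embryonic stem cells express and mature tissues shut off, had 5 of 11 names at 0. These were miR-290, miR-291a-5p, miR-293-3p, miR-294 and miR-295-5p. The other 6 were counted at low levels, with miR-295-3p at 17, 7 and 13 counts in the control libraries and 7, 1 and 8 in the Na2SeO3 libraries, and miR-293-5p at 31 counts in all. miR-291a-5p and miR-295-5p were thus 5p arms, and miR-293-3p a 3p arm, without reads beside a counted partner, miR-291a-3p having 11 counts. The median sum of the list was 5 counts, against 28 for all rat names.

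Both arms of miR-202, the only names on the list of gonad miRNAs, were at 0. The rodent miRNAs in an intron of Sfmbt2, a gene of the placenta, had 6 of 8 names at 0, the members being miR-297, miR-466b-2-3p, miR-466b-3p, miR-466b-4-3p, miR-466c-3p and miR-466d. The 2 counted names were 5p arms, miR-466c-5p with 78 counts and miR-466b-5p with 5, so no 3p arm of this group was counted. miR-466b comes from many near-identical copies, and how the counting divided their reads is not known.

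In the Hox clusters, which pattern the trunk and limbs, 5 of 11 names were at 0: miR-196a-3p, miR-196b-3p, both arms of miR-196c, and miR-615, which lies in an intron of a Hoxc gene. The counted miR-196 arms, miR-196a-5p and miR-196b-5p, had 2 and 3 counts. The miR-10 genes of the same clusters were counted, with 3919 counts of miR-10b-5p and 652 of miR-10a-5p. Among miRNAs of ciliated cells, miR-449a-3p, miR-449c-3p and miR-449c-5p were at 0 and miR-449a-5p had 2 counts, while miR-34c-5p, of the same seed, had 293.

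In muscle the 5 members of 16 names were miR-1-5p, miR-133b-5p, miR-133c, miR-208a-5p and miR-208b-5p. miR-208a and miR-208b lie in introns of the myosin heavy chain genes of heart and slow muscle, and their 3p arms had 2 and 11 counts. Of the 11 counted names of the list, 8 had at least 10 counts, and the highest beside miR-1-3p were miR-1b with 116011 counts, miR-206-3p with 15629, miR-133a-3p with 7804 and miR-499-5p with 6467. The opposite arms miR-206-5p and miR-499-3p had 1 count each, and the median sum of the list was 6.5. The summed level of the muscle list was 18065 to 20912 CPM in the control libraries and 28757 to 32773 CPM in the Na2SeO3 libraries, and the cells these miRNAs came from were not tested. So all 4 muscle members with an arm in the name lie beside a counted arm.

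On the other tissue lists the members were an arm beside a counted arm or a further name of a counted number. On the pancreas list miR-217-3p and miR-375-5p were at 0 of 8 names, with 139 counts of miR-217-5p. On the liver list miR-122-3p and miR-122b were at 0 of 3 names. The list for gut and kidney had miR-192-3p at 0 of 4, that for red cells miR-451-3p of 5, that for endothelium miR-126b of 3 and that for epithelium miR-203b-5p of 14. The highest names of the endothelial and epithelial lists, miR-126a-3p and miR-203a-3p, had 215576 and 28360 counts.

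None of the 16 names of neurons, 6 of glia, 12 of leukocytes, 5 of the sensory cluster or 5 of lens and retina was at 0. However, 6 names of neurons, 2 of glia and 2 of leukocytes had only 1 to 9 counts, a few reads away from 0. In the imprinted Dlk1-Dio3 cluster 4 of 86 names (4.65%) were at 0: miR-299b-5p, miR-409b, miR-679 and miR-758-5p. The list leaves out names recorded later at the same locus: by position, 9 of 67 names (13.4%) of the 38 neighbouring genes from Mir379 to Mir410 were at 0, and 2 of 17 (11.8%) of the 11 genes from Mir770 to Mir136. Among broadly expressed families 7 of 96 (7.29%) were at 0, all of them beside a counted arm: miR-15a-3p, miR-19a-5p, miR-19b-2-5p, miR-29b-1-5p, miR-92a-2-5p, miR-103-1-5p and miR-103-2-5p. The median sums of these 2 lists were 134.5 and 297.5 counts.

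**Figure D4:**
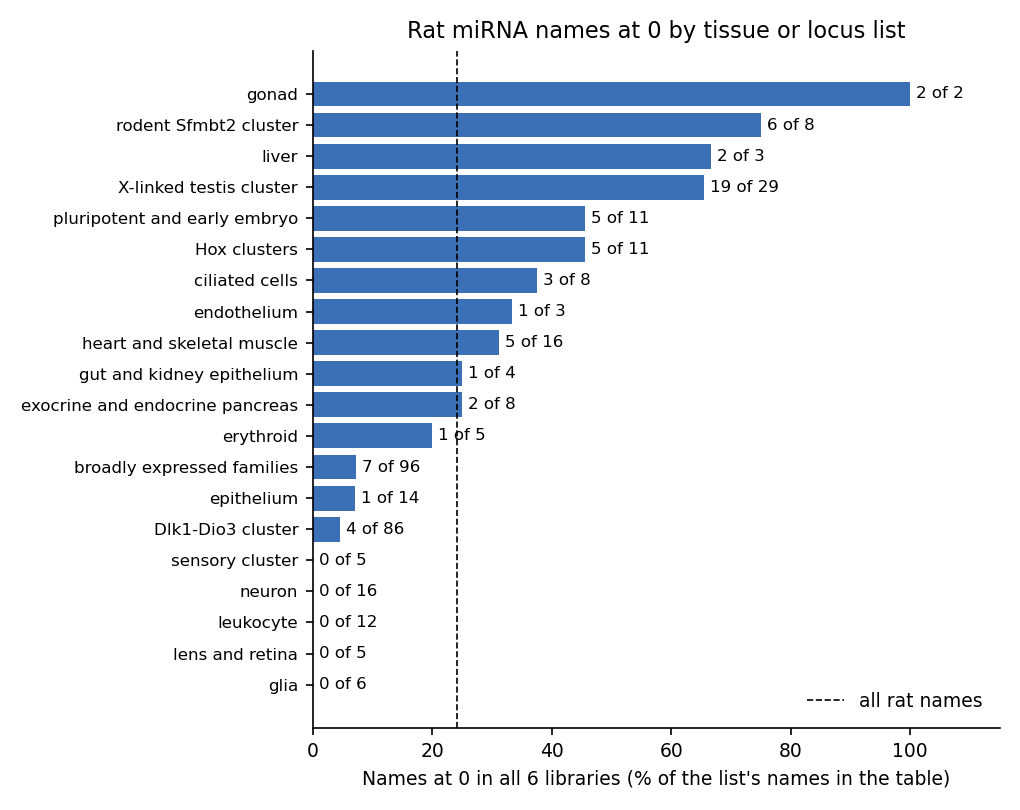
Share of each list's names in the table that were at 0 in all 6 libraries, in percent, with the number at 0 of the number in the table beside each bar; the dashed line is the share over all rat names, 24.2%. The gonad, Sfmbt2, liver and X-linked testis lists have the longest bars, and the neuron, glia, leukocyte, sensory and lens lists have none.

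The sequences of the members were compared with those of the counted names. RefSeq held a mature sequence for 160 of the 185 members (86.5%) and for 686 of the 763 rat names. No member was identical to a counted mature sequence or contained in or containing one. Among counted miRNAs, let-7a-1-3p and let-7c-2-3p have the same sequence, and each had 1268 counts, equal in every library. The nested pair miR-299b-3p and miR-299a-3p was not counted equally, at 124 and 142 counts.

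With a run of 16 shared bases as the limit, a pair of members resembled a counted name. miR-299b-5p shared 19 bases with miR-299a-5p (33 counts), and miR-871-5p shared 16 bases with miR-743a-5p (1 count). They are printed with miR-449c-5p, a member with the seed of the miR-34 family, and miR-34c-5p, to show how near a name at 0 can lie to a counted one (seed in capitals).
miR-299b-5p (at 0): cGGUUUACcgucccacauac
miR-299a-5p (33 counts): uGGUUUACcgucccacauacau
miR-871-5p (at 0): uAUUCAGAuuggugccggucacau
miR-743a-5p (1 count): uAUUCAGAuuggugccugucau
miR-449c-5p (at 0): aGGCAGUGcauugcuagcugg
miR-34c-5p (293 counts): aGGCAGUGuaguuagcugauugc

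Of the 160 with a sequence, 11 (6.88%) shared a seed with a counted name, against 151 of the 526 counted names (28.7%) that shared theirs with another counted name. Besides those printed, they were miR-196c-5p, miR-19b-2-5p, miR-290, miR-301b-3p, miR-344a-5p, miR-344g, miR-3573-5p and miR-741-5p. For miR-301b-3p, a member of the miR-130/301 family, the seed was also that of miR-130a-3p with 416 counts and miR-130b-3p with 28. miR-3573-5p had the seed of miR-423-5p, at 822 counts.

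The median length was 22 bases and the median GC content 47.8% in the members and in the counted names alike. Argonaute binds a guide with U as its first base more readily than others. The first base was U in 33.1% of members, 37.1% of counted names and 47.6% of names with at least 100 counts. By arm it was 40.7% of members against 41.3% of counted names for 5p, 43.2% against 30.8% for 3p, and 19.4% against 48.1% for names without an arm.

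Many of the names without an arm were complementary to a counted miRNA. In 32 members (20% of the 160) the reverse complement of the mature sequence lay within the hairpin of another miRNA gene with a counted arm. Over all 686 rat names with a sequence this held for 61 (8.89%), and 113 (16.5%) matched the hairpin of another miRNA gene, counted or not. By RefSeq positions, 30 of the 32 come from a hairpin that overlaps that gene on the opposite strand, and miR-3556b (Mir29c) and miR-3588 (Mir125b1) do not. In 30 of the 32, at least 16 bases were complementary to a counted mature arm itself. Of the 32, 27 had no arm in the name and 24 were numbered 3000 or above.

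The counted gene was often among the abundant ones, with an arm of at least 1000 counts for 19 of the 32. miR-3553 faces miR-183-5p of the sensory cluster over 22 bases, and miR-183-5p had 102005, 76357 and 56243 counts in the control libraries and 31793, 43327 and 38831 in the Na2SeO3 libraries. miR-3553 had 0 in each, so the counted strand was at least 116185-fold higher with 3 counts as the floor. miR-3571 faces miR-1-3p over 21 bases, so the muscle hairpin miR-1 had 1 counted arm, and both its 5p arm and the name on the other strand were at 0.

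miR-3596a, miR-3596b and miR-3596c face let-7a-5p, let-7d-5p and let-7e-5p, of the family that marks differentiated cells. let-7a-5p had 6194 to 13406 counts in the control libraries and 3230 to 5372 in the Na2SeO3 libraries. miR-218b faces miR-218a-5p (56854 counts), and miR-203b-5p faces miR-203a-3p of stratified epithelium, with 11250, 7397 and 5390 counts in the control libraries and 1130, 1698 and 1495 in the Na2SeO3 libraries. miR-191b faces miR-191a-3p (34 counts), the lesser arm of a hairpin whose miR-191a-5p had 22003 counts. miR-3556a lies against miR-29a-3p (11347 counts) and miR-133c against miR-133a-3p (7804 counts). miR-3574 faces miR-210-3p, the hypoxia-induced miRNA, over all 22 bases, and miR-210-3p had 311 to 593 counts in the control libraries and 66 to 121 in the Na2SeO3 libraries.

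The 32 included names on the other strand of imprinted Dlk1-Dio3 genes, among them miR-3543 (miR-434), miR-3544 (miR-337), miR-3576 (miR-539), miR-3578 (miR-369), miR-3579 (miR-380), miR-3592 (miR-382), miR-3595 (miR-376a), miR-409b (miR-409a) and miR-299b-5p (miR-299a). Their counterparts had between 42 (miR-376a-5p) and 6877 (miR-434-5p) counts on the more counted arm. Hairpins of the miR-29 and miR-200 families were complementary to miR-3556b, miR-3587, miR-3548 and miR-3575.

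**Figure D5:**
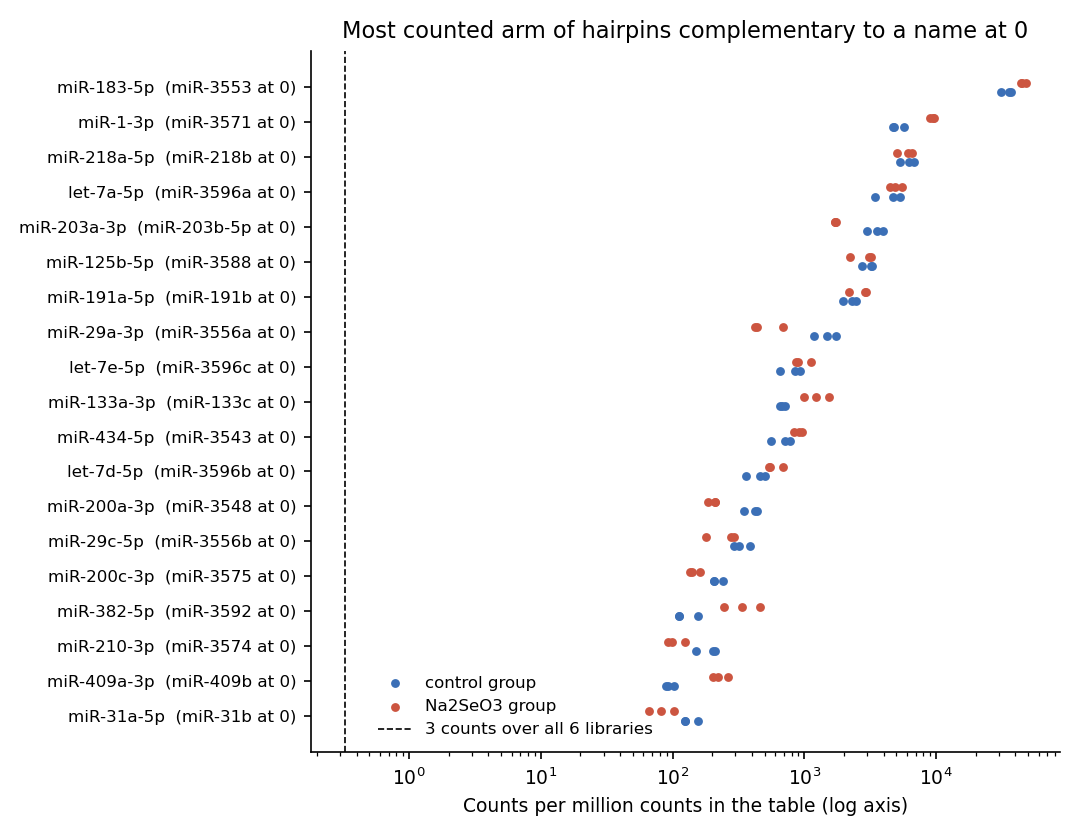
CPM on a log axis of the most counted arm, by name, of each hairpin that is complementary to a name at 0, for the 19 members whose counterpart had at least 1000 counts, with 1 point per library (blue, 3 control; red, 3 Na2SeO3) and the name at 0 in brackets. Every point lies far to the right of the dashed line at 0.325 CPM, the level of 3 counts over the 6 libraries, from miR-183-5p at the top to miR-31a-5p.

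Where the RefSeq table held no hairpin for the counterpart, the mature sequences alone were compared, with a run of 16 bases as the limit. This added 4 members: miR-126b against miR-126a-5p (17 bases, 2097 counts), miR-3557-5p against miR-378a-3p (21 bases, 54624 counts), miR-3570 against miR-181a-1-3p (22 bases, 2713 counts) and miR-3589 against miR-505-3p (20 bases, 305 counts). In all 36 members were complementary to a counted mature arm of another gene or to a hairpin with a counted arm. The other 149 were not or had no sequence to compare.

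By either comparison, 128 of all rat names with a sequence were complementary to another hairpin or arm, and 41 of them (32%) were at 0, against 119 (21.3%) of the 558 that neither comparison matched. Taking the lower-counted side only, 50 of all rat names with a sequence were complementary to a hairpin or mature arm counted higher than themselves, and 36 of them (72%) were at 0. The other 14 were counted at 124 or below, with miR-299b-3p (nested in miR-299a-3p) at 124, miR-299a-5p at 33 and miR-203b-3p at 30 counts, and the remaining 11 at 3 counts or fewer. The class of 50 was defined with the counts, so its share at 0 is a description and follows in part from that choice. Within the names numbered 3000 or above, 27 of 33 names (81.8%) complementary to another hairpin or arm were at 0, against 32 of 63 (50.8%) that were not.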

How the data were processed

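Small RNA libraries of 3 control and 3 Na2SeO3 lens capsules were read from the count table deposited by the authors, who used Cutadapt and Fqtrim for trimming, FastQC for quality and miRDeep and HISAT2 for comparison with the Ensembl rat genome. Which tool made the counts, the build and the versions are not given in the sources used here. The values are counts per miRNA name, not normalized. The members and lists were chosen with earlier results of these data known. A name was a member when its 6 counts summed to 0, and arms were paired by name. Named were list members at 0 (lists with many only by count and highest opposite arm), the 20 members with the highest opposite arm by mean CPM, the families with 3 or more names all at 0, 5 names with 1 count, and opposite arms passing the test. The complementary names, the hairpins with both arms at 0, the shared seeds and the counted list members fall outside this rule and were chosen with their values in view.

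Groups were compared with edgeR 4.0.16 in R 4.3.3 (filterByExpr at 10, TMM, quasi-likelihood test, no covariate, Benjamini-Hochberg over 341 names). DESeq2 1.42.0 served as an alternative. The edgeR fit was also run on counts simulated from these data. p-values measure the spread between 3 lenses per group. CPM was counts over the library total. Sequences and neighbours came from RefSeq (GRCr8); no coordinates are given because the build behind the counts is not named. For miR-3084a-5p, listed with 2 sequences, the first was used. Tables were made with Python 3.11.15 and pandas 2.3.3.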

Additional observations from a re-analysis of the deposited data

Results flagged for a closer look

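For 5 of the names at 0, the table lists the same miRNA number under another species' prefix with counts above 3, the limit that a count of 0 allows. These names lie outside the comparisons of rat names, and their sequences were not analysed here.

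rno-miR-679 was at 0 in all 6 libraries, and mmu-miR-679-5p, under the mouse prefix, had 58, 48 and 38 counts in the control libraries and 0, 225 and 301 in the Na2SeO3 libraries, 670 in all. Na2SeO3 library 1 stood apart from the other Na2SeO3 libraries, and the groups overlapped. rno-miR-632 was at 0, and cfa-miR-632, under the dog prefix, had 16, 21 and 18 counts in the control libraries and 0, 7 and 12 in the Na2SeO3 libraries, 74 in all.

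rno-miR-709 was at 0, and mmu-miR-709 had 35 counts, 25 in control library 2 and 10 in Na2SeO3 library 2, with 0 in the other libraries. rno-miR-190b-3p was at 0, and hsa-miR-190b-3p had 14 counts and mmu-miR-190b-3p had 4 counts, all in Na2SeO3 library 2. rno-miR-365-5p was at 0, and sko-miR-365-5p had 4 counts, all in Na2SeO3 library 1. In these last names each count came from 1 or 2 libraries only.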

How the results depend on the processing

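The number of rat names at 0 rose from 185 to 291 when names with at most 5 counts were added, and ranged from 188 to 203 without each library in turn, the highest without control library 1. The number of members with a counted opposite arm, 72, fell to 45 when that arm needed 10 counts, and was 73 to 79 without each library. With a shared run of 16 bases, an alternative chosen after seeing the data, 2 members in place of 0 resembled a counted name. The 5 opposite arms that passed the test became 1 without the filter on low counts (miR-29b-3p; the others had adjusted p from 0.0636 to 0.157 in edgeR), 10 without the fold change threshold, and 3 with the replicate block, which lost miR-1193-3p and miR-122-5p (adjusted p 0.0766 and 0.0824 in edgeR). They ranged from 1 to 6 without each library: 1 without control library 3, 2 without control library 2 or Na2SeO3 library 3, and 3 without control library 1. DESeq2's Wald test called 4, of which 3 were among the 5, and not miR-1193-3p or miR-299b-3p. Library size alone as the scaling called 6 and moved the median of all miRNAs from 0.08 to 0.27 on the log2 scale. Same-numbered libraries of the groups did not deviate together, with correlations of -0.17, -0.18 and -0.26, so the paired model joins samples that share only a number. Each of the 5 arms called in the main fit kept its direction in these fits. At this depth, a count of 0 in all 6 libraries allows a level of up to 0.325 CPM.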
